A study of Mus musculus with 3 samples.

Results

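*Tecrl*, *2310043L19Rik*, *Afm*, *Caps2* and *Slc15a2* are 5 mouse genes that the study names as examples of genes transcribed from a retrotransposon copy that became active in the spermatocytes of *Pld6* KO and *Dnmt3l* KO males. They were taken by name, as 5 of the 39 genes that the study lists as driven by such copies, and of 49595 RefSeq genes on the nuclear chromosomes. They were chosen in the study from RNA and not from the methylation data described here. The study lists *Afm* and *Caps2* for both mutants, but *Tecrl*, *2310043L19Rik* and *Slc15a2* for *Dnmt3l* KO only. In its text *Tecrl* is activated in both mutants, and the effect at *2310043L19Rik* and *Slc15a2* is weaker in *Pld6* KO. The bisulfite data hold no RNA, so transcription from the copies was not measured, and the genes are described by the methylation of their own promoters, of the copies and of the DNA around both.

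The study compared WT, *Pld6* KO and *Dnmt3l* KO spermatogonia by whole-genome bisulfite sequencing. Bisulfite turns unmethylated but not methylated cytosines into a base read as thymine, and every CpG site in a read is thereby called as one or the other. The cells came from C57BL6/J males at postnatal day 7 and were sorted with an antibody to EpCAM, a surface protein of spermatogonia. Both KO lines lack the gene in all cells of the body, and per the study's methods the WT category also took in animals heterozygous for either mutation. Which of these the WT library came from is not given in the sources used here. For each genotype, 1 library was analysed, so that replicate spread is unknown, and genotype and library cannot be told apart.

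*Pld6* encodes a mitochondrial protein that takes part in making piRNAs, small RNAs that guide the cleavage of retrotransposon transcripts in fetal male germ cells and the methylation of some retrotransposon promoters. *Dnmt3l* encodes a protein without enzymatic activity of its own that the *de novo* DNA methyltransferases need in these cells. Retrotransposons carry their own promoters at the 5′ end. In mouse LINE-1 (L1) elements this is a row of tandem repeats rich in CpG, called monomers. In endogenous retroviruses such as IAP and MERVK it is the long terminal repeat (LTR), of which a full-length copy carries one at each end. A copy upstream of a gene, or inside an intron, can thus supply a start site other than the gene's own. For L1Md_T, a type of L1, the study also refers to an antisense promoter, without giving its place in the element. The 5′ ends described here may not hold it.

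Depth differed between the libraries, from 0.879 calls per CpG site of the chromosomes in *Dnmt3l* KO to 2.92 in *Pld6* KO, with totals of 19289688 and 64076569 calls. The WT library lay between them with 43757722 calls. The median level of the 2-kb tiles of the genome with at least 10 calls was 0.880 in WT and 0.867 in *Pld6* KO, but 0.345 in *Dnmt3l* KO. A level is the fraction of calls that were methylated. As a check of the sorted cells, the starts of 9 maternally imprinted genes, which are unmethylated in male germ cells, had a median level of 0.0200 in WT and 0.0700 in *Pld6* KO, and that of 8 of them in *Dnmt3l* KO was 0. In *Snrpn*, 2 calls in WT were both methylated, as were 4 of 7 in *Pld6* KO. The stretch at this start held 6 CpG sites, against 26 to 78 at the other starts, and may not cover the imprinted region. The paternally methylated region upstream of *H19* was at 0.859, 0.884 and 0.148. All intervals below are 95% intervals on the calls (Wilson for a level, Newcombe for a difference). They cover counting error only and are too narrow, since neighbouring calls often stem from the same read.

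The copies were of 4 kinds, and they were found in the mm10 reference at the places that the study names. Their ends are where the number of matches in the genome reached a set minimum, and may differ from the true ends of the elements. The copy upstream of *Tecrl* is an L1Md_Gf element in the sense direction (chr5:83385321-83389997, 4677 bp), whose 5′ end lies 34802 bp before the start of the gene. The copy upstream of *2310043L19Rik* is a MERVK element in the sense direction (chr1:177653237-177660352, 7116 bp), with its 5′ end 17409 bp before the start. The copies of *Afm* (chr5:90535100-90542862, intron 8, 7763 bp) and *Caps2* (chr10:112167296-112174742, intron 2, 7447 bp) are L1Md_T elements that point against the gene, so that their 5′ ends face the downstream exons. The copy of *Slc15a2* is an IAPEZ element in the sense direction (chr16:36765053-36770356, intron 7, 5304 bp). Downstream of the intronic copies lie 7 of the 15 exons of *Afm*, 16 of the 18 of *Caps2* and 15 of the 22 of *Slc15a2*, which is 42.1%, 100% and 67.2% of their coding bases.

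The 5′ ends of the copies are printed here on the strand of the copy because the calls nearest to the promoters of the copies were made in or next to these stretches. CpG sites are in capitals, and the sequences are from mm10.
*Tecrl* copy, chr5:83389652-83389782, minus strand: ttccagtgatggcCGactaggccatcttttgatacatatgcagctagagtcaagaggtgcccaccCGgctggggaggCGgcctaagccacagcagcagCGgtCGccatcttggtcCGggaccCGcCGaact
*2310043L19Rik* copy, chr1:177660312-177660412, minus strand: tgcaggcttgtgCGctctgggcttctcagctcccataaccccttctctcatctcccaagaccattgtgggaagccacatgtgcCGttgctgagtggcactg
*Afm* copy, chr5:90542822-90543012, minus strand: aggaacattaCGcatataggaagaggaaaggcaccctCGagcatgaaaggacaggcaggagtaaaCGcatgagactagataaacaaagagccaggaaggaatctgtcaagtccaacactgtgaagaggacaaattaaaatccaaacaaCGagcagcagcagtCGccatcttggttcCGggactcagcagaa
*Caps2* copy, chr10:112174682-112174767, minus strand: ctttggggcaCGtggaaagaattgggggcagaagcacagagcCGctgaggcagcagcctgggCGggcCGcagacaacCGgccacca
*Slc15a2* copy, chr16:36770336-36770626, minus strand: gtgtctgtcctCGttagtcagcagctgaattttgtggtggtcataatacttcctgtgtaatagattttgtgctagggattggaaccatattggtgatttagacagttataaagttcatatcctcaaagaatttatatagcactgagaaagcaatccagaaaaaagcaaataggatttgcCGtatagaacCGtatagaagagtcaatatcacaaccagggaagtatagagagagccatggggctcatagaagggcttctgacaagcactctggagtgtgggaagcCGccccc
The stretch of *Tecrl* lies inside the copy, where the monomers begin, and holds 8 CpG sites. That of *2310043L19Rik* begins 60 bases before the MERVK element and ends 40 bases inside it, with 2 sites. That of *Afm* begins 150 bases before the L1 and holds 6 sites, of which 3 lie in unique intron sequence before the L1. The stretches of *Caps2* and *Slc15a2* begin 25 and 270 bases before their copies and hold 5 and 4 sites.

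The 3 L1 copies carry monomers, and the first full monomer of each is printed because most CpG sites of these copies lie in them.
*Afm* monomer, chr5:90542649-90542862, minus strand: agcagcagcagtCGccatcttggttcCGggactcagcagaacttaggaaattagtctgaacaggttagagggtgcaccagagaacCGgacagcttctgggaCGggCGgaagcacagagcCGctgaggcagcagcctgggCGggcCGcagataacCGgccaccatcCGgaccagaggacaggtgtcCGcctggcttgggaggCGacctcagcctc
*Caps2* monomer, chr10:112174529-112174742, minus strand: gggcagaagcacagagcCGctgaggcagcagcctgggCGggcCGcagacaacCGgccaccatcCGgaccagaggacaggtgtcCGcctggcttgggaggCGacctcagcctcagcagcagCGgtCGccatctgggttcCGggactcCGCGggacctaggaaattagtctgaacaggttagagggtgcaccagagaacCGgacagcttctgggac
*Tecrl* monomer, chr5:83389517-83389728, minus strand: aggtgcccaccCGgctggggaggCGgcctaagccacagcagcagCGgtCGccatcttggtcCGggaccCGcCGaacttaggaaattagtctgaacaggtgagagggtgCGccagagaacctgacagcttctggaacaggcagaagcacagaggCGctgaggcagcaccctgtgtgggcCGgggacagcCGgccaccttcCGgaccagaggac
The *Afm* copy has 8.6 monomers of 214 bp over 1839 bp, with 115 of its 163 CpG sites (70.6%). The *Caps2* copy has 7.1 monomers of 214 bp over 1523 bp, with 92 of its 141 sites (65.2%). The *Tecrl* copy has 4.5 monomers of 212 bp, which begin at base 270 counted from 1 and hold 56 of its 89 sites (62.9%). The *Afm* and *Caps2* copies were 99.3% identical over 7447 bases, whereas *Afm* and *Tecrl* were 94.9% identical over 4431 bases. That alignment began at base 270 of the *Tecrl* copy, so that the bases before it may not belong to the L1. The *Tecrl* copy lacks the last 2512 bases of the *Afm* copy. The LTRs at both ends of the same copy were identical, over 435 bp in the MERVK copy with 12 CpG sites in each and over 398 bp in the IAP copy with 17.

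The own promoters were poor in CpG sites. The 250 bases before the start held 1 site in *2310043L19Rik* and in *Afm*, 2 in *Tecrl*, 3 in *Caps2* and 4 in *Slc15a2*, against a median of 6 over the 32851 promoters of the RefSeq table (GRCm38), of which 44.4% had at most 4. All 5 genes were matched by symbol. The promoters of *Tecrl* and *Slc15a2*, the members with the lowest and the highest promoter level in WT, are printed from that table on the strand of the gene.
*Tecrl* promoter, chr5:83355196-83355445, minus strand: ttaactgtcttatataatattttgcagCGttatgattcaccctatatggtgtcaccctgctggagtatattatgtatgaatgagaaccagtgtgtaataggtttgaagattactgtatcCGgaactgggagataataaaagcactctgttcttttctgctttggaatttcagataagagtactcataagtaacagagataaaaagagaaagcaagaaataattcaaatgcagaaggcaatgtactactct
*Slc15a2* promoter, chr16:36784963-36785212, minus strand: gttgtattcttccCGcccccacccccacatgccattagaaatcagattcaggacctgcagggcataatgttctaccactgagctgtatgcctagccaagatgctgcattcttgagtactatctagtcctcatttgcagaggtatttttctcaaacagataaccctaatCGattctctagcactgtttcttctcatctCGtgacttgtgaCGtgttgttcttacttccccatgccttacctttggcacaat

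The own promoters, taken from 2 kb before to 0.5 kb after the start, were methylated in WT in 4 of the 5 genes, with levels of at least 0.6. None of the 5 was lower by at least 0.3 in *Pld6* KO than in WT, where 0.476% of the 24574 RefSeq promoters with enough calls were. In *Dnmt3l* KO all 4 members with at least 10 calls were lower by at least 0.3, against 25.4% of 22939 promoters. For *Tecrl* the difference was below 0.3 within 500 bp of the start, where it was 0.261. Promoters that are methylated in WT make up only a part of that background, as 28.6% of RefSeq promoters had a level of at least 0.6 in WT.

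*Tecrl* encodes a protein related to trans-2,3-enoyl-CoA reductase that is known from heart muscle. Its promoter had a level of 0.433 in WT (0.274 to 0.608, 30 calls) and 0.575 in *Pld6* KO (0.422 to 0.715, 40 calls), but 0 in *Dnmt3l* KO (up to 0.125, 27 calls). WT and *Pld6* KO overlapped within their intervals, and *Dnmt3l* KO lay below both. Within 500 bp of the start the levels were 0.261, 0.375 and 0, with intervals that overlapped those of the wider promoter.

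*2310043L19Rik* is a long non-coding RNA. Its promoter had a level of 0.780 in WT (0.648 to 0.872, 50 calls) and 0.855 in *Pld6* KO (0.777 to 0.908, 110 calls), but 0.176 in *Dnmt3l* KO (0.0835 to 0.335, 34 calls). *Afm* encodes afamin, a plasma protein of the albumin family that binds vitamin E. Its promoter had a level of 0.8 in WT (0.609 to 0.911, 25 calls) and 0.868 in *Pld6* KO (0.727 to 0.942, 38 calls). Only 3 calls were made there in *Dnmt3l* KO, none of them methylated, so that this promoter was not compared.

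*Caps2* encodes calcyphosine 2, a protein with calcium-binding motifs. Its promoter had a level of 0.763 in WT (0.608 to 0.870, 38 calls) and 0.886 in *Pld6* KO (0.797 to 0.939, 79 calls), but 0.188 in *Dnmt3l* KO (0.0889 to 0.353, 32 calls). *Slc15a2* encodes PEPT2, a transporter of small peptides. Its promoter had the highest level of the 5 in WT, 0.939 (0.835 to 0.979, 49 calls), with 0.933 in *Pld6* KO (0.869 to 0.967, 105 calls), but 0.105 in *Dnmt3l* KO (0.0417 to 0.241, 38 calls). In these promoters, too, the intervals of WT and *Pld6* KO overlapped and that of *Dnmt3l* KO lay apart from both.

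The differences between WT and *Dnmt3l* KO in the own promoters ran from 0.433 in *Tecrl* (0.231 to 0.608) to 0.834 in *Slc15a2* (0.662 to 0.909). Those between WT and *Pld6* KO ran from -0.142 in *Tecrl* (-0.354 to 0.0906) to 0.00544 in *Slc15a2* (-0.104 to 0.0815). All 5 of the latter intervals included 0.

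**Figure D1:**
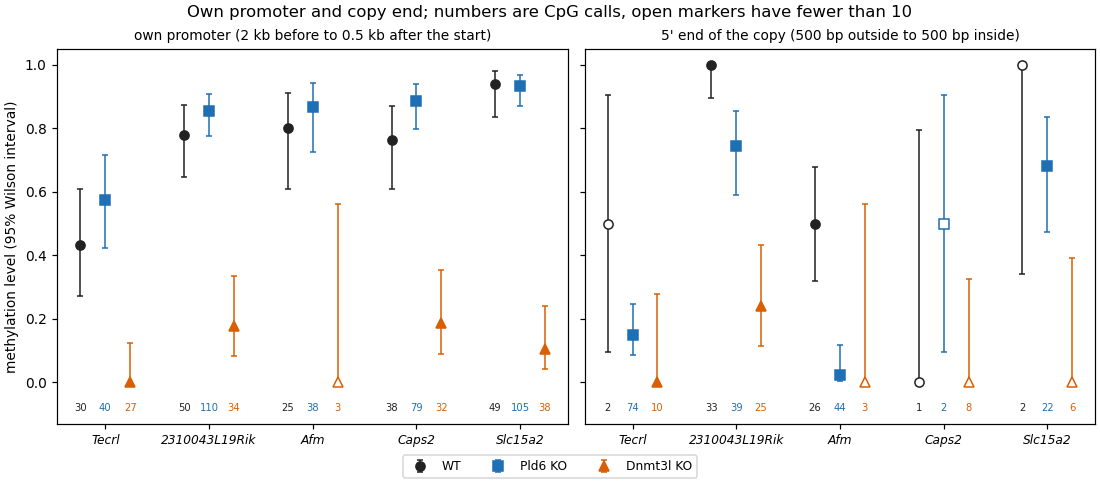
Methylation level of the own promoter (left) and of the 5′ end of the copy (right) of each gene in WT (circles), *Pld6* KO (squares) and *Dnmt3l* KO (triangles). Bars are 95% Wilson intervals, numbers are CpG calls, and open markers have fewer than 10 calls; the promoters of WT and *Pld6* KO overlap, whereas the *Afm* copy end is at 0.5 in WT and 0.0227 in *Pld6* KO.

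The copies themselves were seen by few reads. The files hold calls from uniquely mapped reads, and the first 500 bases of the copies had a median of 274 matches in the genome in *Slc15a2* to 7291 in *Tecrl*. In WT, at least 1 call was made at 2.25% of the CpG sites of the *Tecrl* copy, 6.61% of the *2310043L19Rik* copy, 2.13% of the *Caps2* copy and at none of the sites of the *Afm* and *Slc15a2* copies. In sequence with fewer than 50 matches, called unique here, the share was between 57.7% around *Tecrl* and 79.6% around *Afm*. The *Tecrl* share was taken out to 46 kb before the start. The comparison of copies was therefore made at the 5′ end, from 500 bp outside to 500 bp inside the copy, and only *2310043L19Rik* and *Afm* had at least 10 calls there in both WT and *Pld6* KO.

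The 5′ end of the *Afm* copy was less methylated in *Pld6* KO than in WT. Its level was 0.5 in WT (13 of 26 calls) and 0.0227 in *Pld6* KO (1 of 44 calls), with no methylated call among 3 in *Dnmt3l* KO. WT exceeded *Pld6* KO by 0.477 (0.274 to 0.658). The difference lay in the 3 CpG sites of the intron just before the L1, which the printed sequence shows. At the site 139 bases before the L1, 7 of 9 calls were methylated in WT and 0 of 9 in *Pld6* KO. At the site 112 bases before it these were 4 of 8 and 1 of 10, and at the site 84 bases before it 2 of 6 and 0 of 7. A further site 384 bases before the L1 had no methylated call among 3 in either library.

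The 3 sites at the first bases of the *Afm* copy, at base -1, 13 and 27 counted from 0 at its first base, had 0 of 5 calls methylated each in *Pld6* KO and no call in WT. From 500 to 1000 bp outside the copy the levels were 0.867 in WT (15 calls) and 0.895 in *Pld6* KO (19 calls), with a difference of -0.0281 (-0.285 to 0.202). The lower level in *Pld6* KO was thus measured within 500 bp of the copy and not in the next 500 bp. In *Dnmt3l* KO these next 500 bp were at 0.2 (10 calls).

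At the 5′ end of the MERVK copy upstream of *2310043L19Rik* the levels were 1.0 in WT (33 calls) and 0.744 in *Pld6* KO (39 calls), but 0.24 in *Dnmt3l* KO (25 calls). WT exceeded *Pld6* KO by 0.256 (0.104 to 0.411), and *Dnmt3l* KO by 0.760 (0.539 to 0.885). In *Pld6* KO the unmethylated calls were spread over several sites and not confined to the LTR. Outside the copy 19 of 27 calls were methylated in *Pld6* KO and 23 of 23 in WT, and inside it 10 of 12 and 10 of 10. Farther outside, the level in *Pld6* KO was 0.778 (36 calls) from 500 to 1000 bp and 0.812 (32 calls) from 1000 to 2000 bp, where all calls of WT were methylated (11 and 16 calls). At the CpG site 24 bases from the first base of the copy, in the LTR, all 8 calls were methylated in WT, 6 of 8 in *Pld6* KO and 1 of 3 in *Dnmt3l* KO. Over the whole copy the level was 0.731 in WT (0.539 to 0.863, 26 calls) and 0.661 in *Pld6* KO (0.534 to 0.769, 59 calls). These intervals overlap. The tile of the copy 16.06 kb before the start was at 0.611 in WT (18 calls) and 0.553 in *Pld6* KO (38 calls).

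The other 3 copy ends had too few calls in WT for a comparison. In the *Tecrl* copy, *Pld6* KO had 11 of 74 calls methylated (0.149, 0.0851 to 0.247), *Dnmt3l* KO 0 of 10, and WT 1 of 2. The calls in *Pld6* KO came almost all from 6 CpG sites 281 to 338 bases from the first base of the copy, in its first monomer, at which 1 to 3 of 12 or 13 calls were methylated. These sites had 5664 to 6994 matches in the genome and at most 1 call each in WT. They lie so close that the same few reads may cover all of them. Whether these reads were duplicates or came from other copies was not tested. At the IAP copy of *Slc15a2*, 15 of 22 calls were methylated in *Pld6* KO (0.682, 0.473 to 0.836), 0 of 6 in *Dnmt3l* KO and 2 of 2 in WT. At the L1 of *Caps2*, 0 of 1 call was methylated in WT, 1 of 2 in *Pld6* KO and 0 of 8 in *Dnmt3l* KO. The *Tecrl* calls all lay inside the copy as located, whereas in *Slc15a2* all but 1 of those in *Pld6* KO, a methylated call, lay in the intron before the IAP, so that these levels were not compared with each other.

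**Figure D2:**
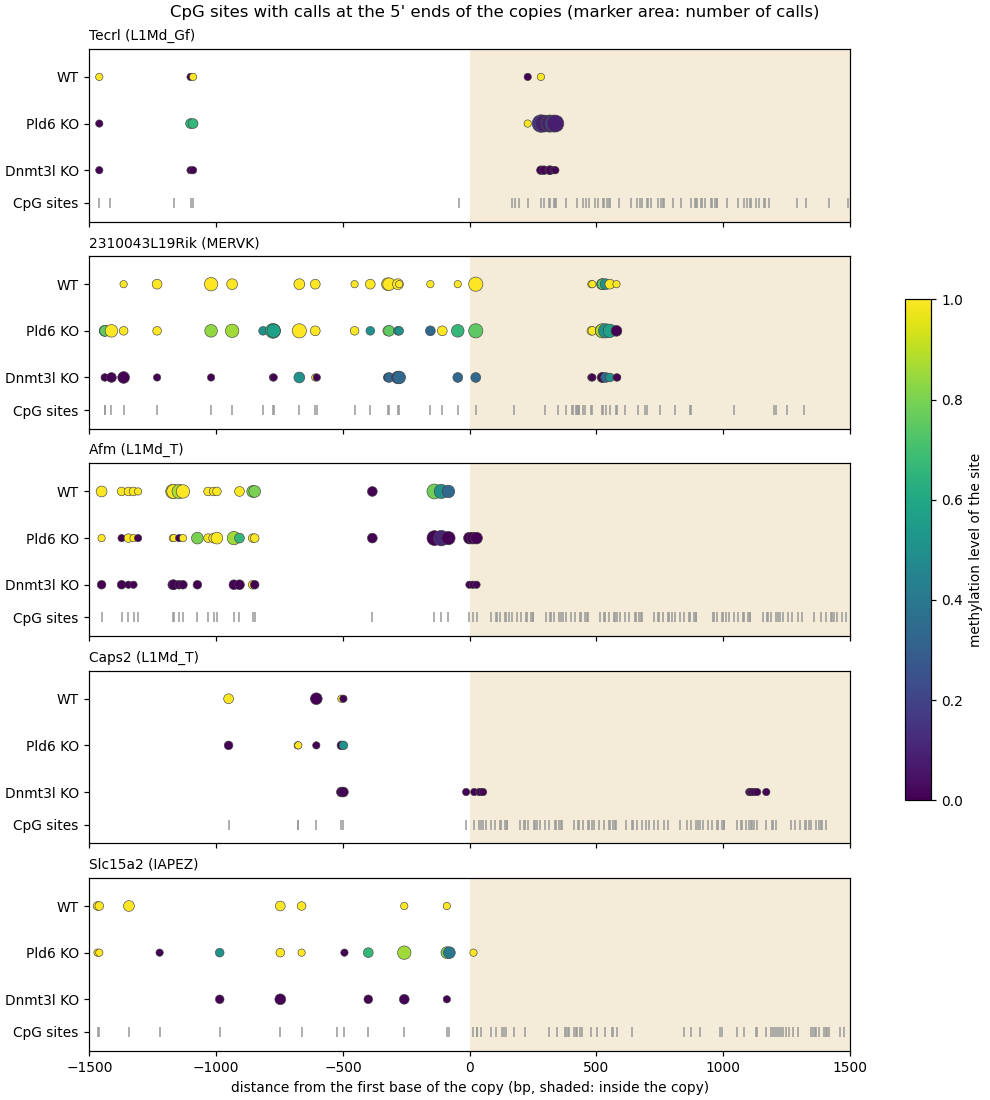
CpG sites on both sides of the first base of each copy, with 1 row of markers for each library. The marker area grows with the number of calls, the colour gives the methylation level of the site, ticks mark all CpG sites of the reference, and the shaded part lies inside the copy; the dark *Pld6* KO markers stand 281 to 338 bases from the first base of the *Tecrl* copy and between -139 and 27 bases in *Afm*.

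The loci were then followed in 2-kb tiles from 20 kb before the start to 20 kb past the end of each gene. Tiles that overlap the outer end of a flank were included whole. With at least 10 calls in both libraries, 139 tiles could be compared between WT and *Pld6* KO. Of these 6 (4.32%) were lower in *Pld6* KO by at least 0.3, against 2.16% of the 959542 tiles of the genome, and none was higher by at least 0.3. The 6 tiles, referred to as called, were 3 of *Tecrl* and 1 each of *Afm*, *Caps2* and *Slc15a2*. That of *Caps2* lies mostly outside the 20-kb flank. Without *Tecrl* 3 of 114 tiles (2.63%) were lower, and in tiles of 1 kb it was 4 of 166 (2.41%) against 2.21% of the genome. The median difference over the 139 tiles was 0.00216 (WT minus *Pld6* KO), and over the genome 0.00794.

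The tile at the 5′ end of the *Afm* copy, centred 24.05 kb after the start, had a level of 0.712 in WT (52 calls) and 0.378 in *Pld6* KO (74 calls), but 0.118 in *Dnmt3l* KO (17 calls). Fisher's exact test, two-sided and adjusted by Benjamini-Hochberg over all tiles of the genome, gave an adjusted p of 0.0217 for WT against *Pld6* KO. The 74 calls of *Pld6* KO included 15 in repeated sequence, none of them methylated, where WT had no call. The tile at the 5′ end of the *Slc15a2* copy, 13.96 kb after the start, was at 1.0 in WT (15 calls) and 0.7 in *Pld6* KO (30 calls), but 0 in *Dnmt3l* KO (12 calls), with an adjusted p of 0.339 in Fisher's exact test for WT against *Pld6* KO. The tile at the 5′ end of the *2310043L19Rik* copy was at 1.0 in WT (55 calls) and 0.765 in *Pld6* KO (98 calls), but 0.222 in *Dnmt3l* KO (45 calls). Its decrease in *Pld6* KO of 0.235 was under 0.3, with an adjusted p of 0.00269 in Fisher's exact test. Each test compares 2 libraries and not the genotypes. Neighbouring calls, which often share a read, were each counted separately in it. The p-values given here and below are therefore likely too small, just as the intervals are too narrow.

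The largest decrease in *Pld6* KO was not at a copy that the study names. It was the tile centred 86.19 kb after the start of *Tecrl*, past the end of the 77.074-kb gene, with a level of 0.881 in WT (42 calls) and 0.143 in *Pld6* KO (49 calls), but 0 in *Dnmt3l* KO (15 calls). The adjusted p of Fisher's exact test for WT against *Pld6* KO was 3.83e-10. Of its 2000 bases, 1879 (94.0%) had at least 50 matches in the genome, with a median of 9899 matches, each over 100 bases or more at 90% identity or higher. Its repeated CpG sites were lower in *Pld6* KO, at 0.167 against 0.909 in WT, and so were its unique sites, with 0 of 7 calls against 7 of 9.

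The other called tiles had fewer calls and did not pass the test. The tile 38.19 kb after the start of *Tecrl*, in the gene, was at 0.667 in WT (18 calls) and 0.222 in *Pld6* KO (27 calls), but 0 in *Dnmt3l* KO, and that 9.81 kb before the start was at 0.909 (11 calls), 0.5 (10 calls) and 0. The tile 20.68 kb before the start of *Caps2* was at 1.0 (15 calls), 0.593 (27 calls) and 0 (4 calls). Their adjusted p-values in Fisher's exact test for WT against *Pld6* KO were 0.159, 0.559 and 0.129. In the *Caps2* tile all calls of WT and *Pld6* KO lay at -21669 to -20190 bases from the start, past the 20-kb flank. This tile was counted because it overlaps the outer end of the flank. Beyond the 20-kb flank, 39.81 kb before the start of *Tecrl* and outside its copy, a tile had a level of 0.727 in WT (22 calls) and 0.3 in *Pld6* KO (40 calls), but 0 in *Dnmt3l* KO (12 calls), with an adjusted p of 0.0767 in Fisher's exact test. Of its 2000 bases, 1177 had at least 50 matches in the genome. In this repeated part 16 of 19 calls were methylated in WT and 9 of 34 in *Pld6* KO. In the unique part these were 0 of 3 and 3 of 6, all from the same CpG site. The decrease was thus measured in the repeated part, and the unique part had too few calls for a comparison.

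All 6 called tiles held at least 100 bases with 50 or more matches in the genome, as did 46 of the 139 compared tiles (33.1%). This does not place their decrease in repeats, as in the *Slc15a2* and *Afm* tiles all WT calls lay in unique sequence. There 15 of 15 calls were methylated in WT and 20 of 29 in *Pld6* KO in *Slc15a2*, and 37 of 52 and 28 of 59 in *Afm*. The other called tiles had WT calls in both parts. For *Tecrl* the pooled stretch was extended to 46 kb before the start, past the copy. Around *Tecrl*, repeated sequence outside the copy was at 0.8 in WT (0.740 to 0.849, 205 calls) and 0.486 in *Pld6* KO (0.432 to 0.540, 325 calls), but 0.0777 in *Dnmt3l* KO (103 calls). Tiles at 86.19, -37.81 and -39.81 kb from the start gave 42, 56 and 34 of these *Pld6* KO calls, with 7, 18 and 9 methylated. In WT these were 30 of 33, 7 of 10 and 16 of 19. Unique sequence around *Tecrl* was at 0.736 in WT (538 calls) and 0.750 in *Pld6* KO (793 calls), but 0.0877 in *Dnmt3l* KO (308 calls). Pooled over this extended stretch, the decrease in *Pld6* KO around *Tecrl* was in the repeated part. Around *Caps2* repeated sequence was at 0.968 in WT (62 calls) and 0.787 in *Pld6* KO (75 calls), around *Afm* at 0.917 (24 calls) and 0.787 (47 calls), and around *Slc15a2* at 0.660 (53 calls) and 0.616 (112 calls). The intervals of WT and *Pld6* KO overlapped in *Afm* and *Slc15a2* and did not in *Caps2*. In *Caps2*, the tile 20.68 kb before the start gave 9 of the 62 WT calls, with 9 methylated. It also gave 18 of the 75 *Pld6* KO calls, with 10 methylated. The *Caps2* difference thus rests partly on a tile at the edge of the locus.

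**Figure D3:**
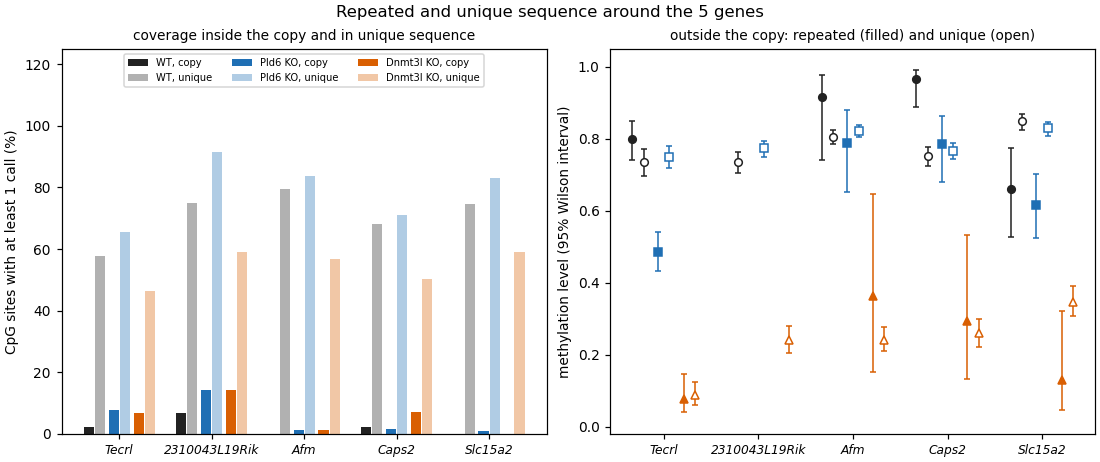
Left, share of CpG sites with at least 1 call inside the copy (dark bars) and in unique sequence (pale bars) for each gene and library. Right, methylation level with 95% Wilson intervals of repeated sequence outside the copy (filled) and unique sequence (open), where at least 10 calls were made. Repeated sequence around *Tecrl*, out to 46 kb before its start, is at 0.8 in WT and 0.486 in *Pld6* KO.

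**Figure D4:**
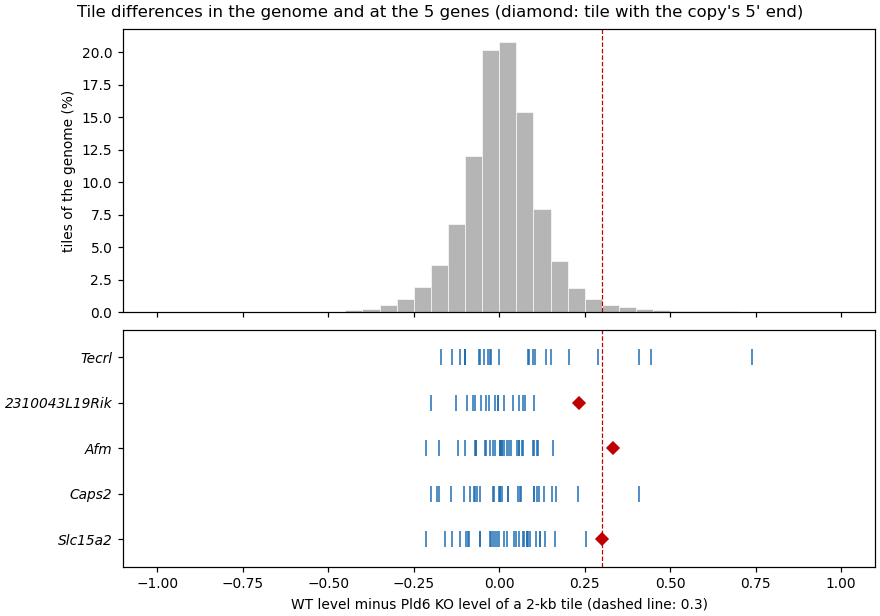
Top, percent of the 2-kb tiles of the genome in bins of WT level minus *Pld6* KO level. Bottom, the same difference for the compared tiles of the 5 genes, with diamonds for tiles that hold the 5′ end of a copy; the dashed line marks 0.3, and the tile at 0.738 is the one past the end of *Tecrl*.

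In *Dnmt3l* KO the loss of methylation reached along all 5 loci. Of 102 tiles compared with WT, 89 (87.3%) were lower by at least 0.3, against 75.0% of the tiles of the genome, with 9 of 10 in *Tecrl*, 13 of 17 in *2310043L19Rik*, 29 of 30 in *Afm*, 19 of 22 in *Caps2* and 19 of 23 in *Slc15a2*. Of 103 tiles compared between *Pld6* KO and *Dnmt3l* KO, 88 (85.4%) were lower in *Dnmt3l* KO by at least 0.3, against 74.5% of the genome. The median tile level in *Dnmt3l* KO was 0 in *Tecrl*, 0.255 in *2310043L19Rik*, 0.250 in *Afm*, 0.222 in *Caps2* and 0.389 in *Slc15a2*. In WT the medians lay between 0.818 in *Tecrl* and 0.900 in *Slc15a2*, and in *Pld6* KO between 0.714 and 0.895. The highest tile of *Tecrl* in *Dnmt3l* KO reached 0.182, and those of the other loci reached 0.538 to 0.607.

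**Figure D5:**
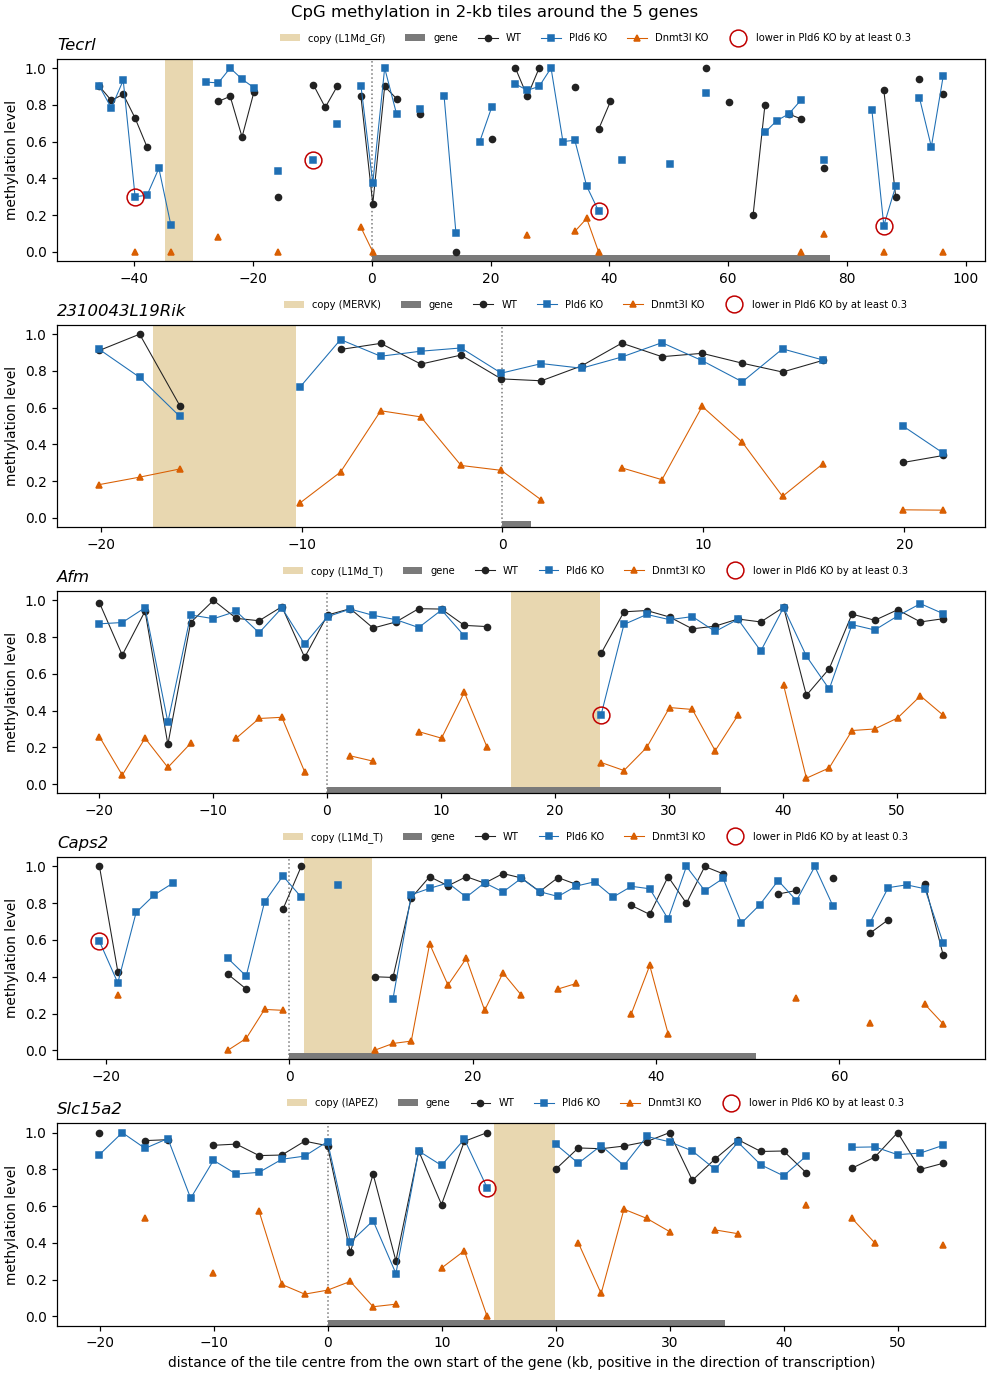
Methylation level of 2-kb tiles with at least 10 calls against the distance from the own start of each gene, in WT (black), *Pld6* KO (blue) and *Dnmt3l* KO (orange). Lines join neighbouring tiles, the shaded band is the copy and the grey bar the gene. Red circles mark tiles lower in *Pld6* KO by at least 0.3. Of these, that at -39.81 kb of *Tecrl* lies wholly and that at -20.68 kb of *Caps2* mostly outside the 20-kb flank.

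Dips were sought as tiles whose upper Wilson bound was below 0.5 times the median of the tiles within 50 kb in the same library. In WT 4 of 145 tiles (2.76%) were dips, against 4.80% of the genome. With the level itself in place of its upper bound the order turned, to 14 of 145 (9.66%) against 7.11%. The 4 dips by the upper bound lay 14.19 kb after the start of *Tecrl* (0 of 11 calls) and 19.94 kb after that of *2310043L19Rik* (0.302, 106 calls). Before the start they lay at 13.95 kb in *Afm* (0.216, 88 calls) and at 4.68 kb in *Caps2* (0.333, 96 calls). None of the 4 lay at a copy or at the own start of the gene. Without meeting the bound, the tile with the own start of *Tecrl* was at 0.261 in WT (23 calls). That with the 5′ end of the *Caps2* copy was at 0.4 (10 calls). Most tiles inside the copies had fewer than 10 calls in WT and could not be dips. The 4 dips were also the lowest tiles of their genes in WT, and the lowest of *Slc15a2* was 5.96 kb after the start (0.302, 43 calls).

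In *Pld6* KO 4 of 163 tiles (2.45%) were dips, against 4.42% of the genome, and by the level 13 (7.98%) against 6.68%. They were the tile past the end of *Tecrl*, the same tile before *Afm* as in WT (0.337, 98 calls), the tile 11.32 kb after the start of *Caps2* (0.279, 61 calls) and that 5.96 kb after the start of *Slc15a2* (0.233, 90 calls). The *Caps2* tile begins past the 5′ end of the L1, where WT was at 0.396 (53 calls) and *Dnmt3l* KO at 0.0370 (27 calls), so that the low level there was shared by WT. The *Slc15a2* tile, in the part of the gene before the IAP, was likewise low in WT (0.302). Outside the 20-kb flank, the tile with the 5′ end of the *Tecrl* copy was a dip in *Pld6* KO (0.149, 74 calls) and had 2 calls in WT. This dip rests mostly on the closely spaced monomer sites given above.

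In *Dnmt3l* KO none of the 104 tiles with a local median was a dip, against 4.96% of the genome, but only 30 tiles had enough calls for a level of 0 to be called. By the level 27 of the 104 (26.0%) were dips, against 20.2%. Between 18 calls in *Slc15a2* and 166 in *Tecrl* were needed, against 5 to 7 in WT and *Pld6* KO. The lowest tiles were at 0 in *Tecrl*, *Caps2* and *Slc15a2*, at 0.0426 in *2310043L19Rik* and at 0.0323 in *Afm*.

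The DNA between the copy and the exons it is said to drive kept a high level in WT and in *Pld6* KO. Between the copy and the gene, *Tecrl* was at 0.764 in WT (165 calls) and 0.833 in *Pld6* KO (270 calls), but 0.0980 in *Dnmt3l* KO (102 calls), and *2310043L19Rik* at 0.858 (162 calls), 0.875 (264 calls) and 0.333 (84 calls). The part of the gene downstream of the intronic copy was at 0.859, 0.809 and 0.239 in *Afm*, at 0.847, 0.826 and 0.297 in *Caps2* and at 0.905, 0.891 and 0.407 in *Slc15a2*. The differences between WT and *Pld6* KO in these 5 parts ran from -0.0697 to 0.0504, and each interval included 0.

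Within *Slc15a2* the parts before and after the IAP differed in each library. Before the copy the gene was at 0.646 in WT (0.582 to 0.705, 226 calls) and 0.592 in *Pld6* KO (0.541 to 0.642, 358 calls), but 0.158 in *Dnmt3l* KO (0.106 to 0.229, 133 calls), and all 3 lay below the part after the copy. In *Afm* the parts were closer, with 0.899, 0.894 and 0.279 before the copy. Beside the L1 of *Caps2*, RefSeq lists predicted transcripts that start just outside its 5′ end, and within 500 bp of these starts 1 of 7 calls was methylated in WT, 2 of 7 in *Pld6* KO and 0 of 11 in *Dnmt3l* KO. In the *Caps2* locus, 46.7% of the bases had 2 to 5 matches in the genome and 31.1% a sole match, against 79.2% to 85.1% with a sole match in the other loci, and calls were made in WT at 68.0% of its CpG sites with fewer than 50 matches.

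The neighbouring genes whose starts lie within the loci also had their lowest level in *Dnmt3l* KO. The promoter of *Albfm1*, next to *Afm*, was at 0.719 in WT (114 calls) and 0.8 in *Pld6* KO (145 calls), but 0.195 in *Dnmt3l* KO (41 calls). The promoter of *Glipr1l3*, which overlaps the WT dip before *Caps2*, was at 0.333 (99 calls), 0.409 (110 calls) and 0.0938 (32 calls).

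The study lists 34 other genes as driven by retrotransposons. A WT promoter level of at least 0.6 was found in 4 of 5 members and in 10 of the 31 others with a measured promoter, whose median was 0.220. Among the others, 1 of 31 promoters was lower by at least 0.3 in *Pld6* KO and 11 of 29 in *Dnmt3l* KO. Of their tiles, 43 of 1873 (2.30%) were lower in *Pld6* KO. No test of the difference between the lists was made, as both were set with the RNA of these mutants in view.

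The promoter decreases in *Dnmt3l* KO were largest among the others in *Tmc2* (0.863), *Il23r* (0.848) and *Yipf7* (0.735), next to 0.834 in *Slc15a2*. *Tmc2* was also the gene lower in *Pld6* KO, with 0.914 in WT (105 calls) and 0.415 in *Pld6* KO (193 calls), but 0.0513 in *Dnmt3l* KO (39 calls). The share of tiles lower in *Pld6* KO was highest in *Col4a5* (10%), *Abcb1a* (9.09%) and *Yipf7* (8.70%), and it was 12% in *Tecrl*, 3 of 25 tiles. With 20 to 44 compared tiles in each of these genes, these shares rest on 2 to 4 tiles each.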

How the data were processed

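Spermatogonia of 3 genotypes were examined, with 1 library each. Adaptors were added after the bisulfite treatment, and the authors trimmed the reads and mapped those of unique origin with Bismark (version not given in the sources used here) to mm10, the build named in the submitters' processing notes. The authors deposited, site by site, the counts of calls in either state, methylated or not, and the level as a fraction. Removal of duplicate reads is not stated. The counts were summed over promoters, copy ends and 2-kb tiles, and a level needed at least 10 calls to be compared. A decrease of at least 0.3 was called. Fisher's exact tests were adjusted over all tiles of the genome and checked on simulated data. They compare libraries. Alternatives changed the calls needed, tile size and grid, thresholds, promoter and copy-end widths and the weighting of sites. The copies were located by the number of blastn (version 2.17.0) matches per base, at least 1000 for L1 and 50 for ERV, at the places the study names. This replaces a planned search with full-length elements. The members, lists and rules were chosen with earlier results of these data known. The other genes are those listed by the study, named by the size of their promoter decrease and share of lower tiles. The calls per CpG site set the precision, and the intervals cover counting error only.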

Additional observations from a re-analysis of the deposited data

How the results depend on the processing

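The count of tiles lower in *Pld6* KO than in WT, 6 of 139 (4.32%) against 2.16% of the genome in the comparison reported, was 2 of 98 (2.04%) against 1.40% with at least 20 calls, 3 of 80 (3.75%) against 2.10% in tiles of 5 kb, 11 (7.91%) against 5.06% with a decrease of at least 0.2 and 3 (2.16%) against 1.07% by Fisher's exact test at an adjusted p under 0.05. Of the 6 tiles, 2 passed that test. In tiles of 1 kb the share, 2.41%, was near the genome's 2.21%. With at least 20 calls, 31 of 41 tiles (75.6%) were lower in *Dnmt3l* KO than in WT, against 69.6% of the genome, and 36 of 42 (85.7%) were lower than in *Pld6* KO, against 69.8%. Dips by the level and not its upper bound numbered 14 in WT (9.66%), 13 in *Pld6* KO (7.98%), but 27 in *Dnmt3l* KO (26.0%), and in all 3 libraries the share then exceeded that of the genome (7.11%, 6.68% and 20.2%), where it lay below it in the comparison reported. Under the other settings it stayed below the genome's share. Dips in WT numbered 2 of 102 with at least 20 calls, where the genome had 6.43%, and 8 of 178 in tiles of 1 kb (4.49% against 5.90%), and in *Pld6* KO 9 of 232 in tiles of 1 kb (3.88% against 4.99%). In *Dnmt3l* KO, with 0 dips reported, they numbered 2 of 105 with a local median over 100 kb on each side (1.90% against 5.28%), 1 of 96 in tiles of 1 kb (1.04% against 5.83%) and 2 of 101 on a grid shifted by 1 kb (1.98% against 4.995%). Within 500 bp of the start, the promoter level was 0.261 in WT and 0.375 in *Pld6* KO for *Tecrl*, 0.917 and 1.0 for *Afm* and 0.909 in WT for *Caps2*, which was 0.919 from the RefSeq start. At the copy ends, *Tecrl* in *Pld6* KO was 0.260 as the mean of site levels, *2310043L19Rik* in WT 0.883 over 1 kb on each side, *Afm* in *Pld6* KO 0.286 over 1 kb on each side and 0 inside the copy, and *Slc15a2* in *Pld6* KO 1.0 inside the copy (1 call). The cause of these shifts was not tested. In *Tecrl* the promoter difference between WT and *Dnmt3l* KO was 0.261 within 500 bp of the start, below 0.3. In the own promoters no setting made a member lower in *Pld6* KO by 0.3, and at the *Afm* copy end all 5 settings kept a decrease of at least 0.3, from 0.348 to 0.477. No paired analysis was possible because each genotype has 1 library, and no library could be left out.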
